A study of Mus musculus with 12 samples.

Results

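The macrophage and myeloid genes described here are 39 genes that mark macrophages, monocytes and related phagocytes or serve their work, chosen by name and read from a table of 39171 mouse genes. Of these, 37 were found by symbol, and the other 2 by Ensembl ID, Adgre1 under its older symbol Emr1 and Clec7a on a row that carries no symbol. They were measured by RNA-seq of total RNA from the kidneys of 12 male mice up to 3 months old, 1 library per mouse and 4 mice per group. Sick knock-in mice and healthy knock-in mice carry the same change, M743T on both copies of GNE, the bifunctional enzyme that starts sialic acid synthesis, and differ in the phenotype given to them. Wild-type mice carry no such change. The sources used here do not say what made an animal count as sick, nor give litters or batches, so both knock-in groups model 1 genotype with and without an outward phenotype.

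Macrophages live in every organ, the kidney included, as resident cells between the tubules, and more can enter from the blood as monocytes. They are kept alive by the growth factor CSF1 acting on its receptor Csf1r, and their identity depends on the transcription factor PU.1, which Spi1 encodes. They sense and engulf debris through scavenger, lectin and Fc receptors, pass many of those signals through small adapter proteins that bear the tyrosine motif called ITAM, and break down what they take up in lysosomes rich in cathepsins and lysozyme.

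In sick knock-in kidneys 37 of the 38 macrophage and myeloid genes that could be tested were higher than in wild-type kidneys and none was lower, beside 25.9% of all 15589 genes tested that were higher and 25% that were lower. Their median log2 fold change was 2.75, a 6.71-fold difference, beside a median of 0.02 over all tested genes, and their range ran from 0.97 for Fcgr2b to 4.66 for Gpnmb. At least a 4-fold difference was reached by 31 members, beside 7.95% of all tested genes, and at least an 8-fold difference by 14, beside 2.98%. For 35 members every sick mouse lay above every wild-type mouse, beside 22.7% of all tested genes. The remaining tested gene, Aif1, had a log2 fold change of 1.08 and did not pass the threshold. Against healthy knock-in kidneys, all 38 tested members were higher in sick knock-in kidneys, beside 24.5% of all tested genes, with a median log2 fold change of 2.28. Between healthy knock-in and wild-type kidneys none of the 38 passed the threshold. Tests are edgeR's quasi-likelihood test with Benjamini-Hochberg adjustment over all tested genes and a threshold of 0.05, and levels are in CPM, a gene's counts relative to the scaled total of its library. The 3 comparisons are not independent, since any pair of them shares the 4 libraries of a group.

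Total counts were 10605546 to 22633684 per library in sick knock-in, 18191087 to 21925419 in healthy knock-in and 13189478 to 19493856 in wild-type mice. In a principal component analysis of all tested genes the first component, 60.9% of the variance, set all 4 sick libraries apart from the other groups, and wild-type mouse 2 stood alone on the second, at -84.7 where the other wild-type mice lay between 1.34 and 18.3. The tissue was recognisable in every library from 7 genes of the proximal tubule, whose summed level was 2421 to 4353 CPM in sick knock-in, 15717 to 19614 CPM in healthy knock-in mice and 14224 to 18602 CPM in wild-type kidneys. In whole tissue, more macrophages and more RNA per macrophage cannot be told apart. Values below are listed for mice 1 to 4 of each group, whose numbers are taken as names of the animals.

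The genes that define the whole lineage came first. Ptprc encodes CD45, the phosphatase on all white blood cells, and had 59.9, 31.1, 34.8 and 71.3 CPM in sick knock-in, 21.2, 14.1, 19.7 and 15.7 CPM in healthy knock-in mice and 10.6, 7.49, 12 and 21 CPM in wild-type mice. All 4 sick mice lay above every other animal. The difference from wild-type was 3.85-fold, a log2 fold change of 1.95 ± 0.33 (± SE, here and for every log2 fold change below, adjusted p = 0.000385). Csf1r, the receptor through which CSF1 keeps macrophages alive, had 225, 117, 98.8 and 135 CPM in sick knock-in, 59.98, 72.7, 99.3 and 63.9 CPM in healthy knock-in mice and 60.1, 73.7, 71.7 and 75.5 CPM in wild-type mice. Sick mouse 1 was highest, the sick and wild-type groups did not overlap, and healthy mouse 3 reached the level of sick mouse 3. Its log2 fold change of 1.04 ± 0.24 (adjusted p = 0.00291) was the second smallest of the 38. Annotated exons of Hmgxb3 on the opposite strand cover 15.1% of the exon bases of Csf1r, and since strand handling is not given, reads of both genes cannot be told apart there.

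Proteins used to stain macrophages in tissue came next. Adgre1 encodes F4/80, and had 51.0, 20.1, 19.1 and 34.0 CPM in sick knock-in, 8.45, 9.45, 8.70 and 5.39 CPM in healthy knock-in mice and 4.53, 4.30, 3.55 and 9.72 CPM in wild-type mice. Every sick mouse exceeded every other mouse, and wild-type mouse 4 stood above the other wild-type mice. The log2 fold change over wild-type was 2.48 ± 0.38 (adjusted p = 0.000179). Cd68, a glycoprotein of the lysosomal membrane, had 30.7, 20.8, 19.4 and 26.3 CPM in sick knock-in, 4.77, 4.36, 5.72 and 4.03 CPM in healthy knock-in mice and 2.91, 3.65, 3.21 and 4.63 CPM in wild-type mice. It had the smallest SE of the 38 in this comparison, at a log2 fold change of 2.75 ± 0.21 (adjusted p = 2.26e-06). Aif1, which encodes the calcium-binding protein Iba1, had 4.18, 1.23, 2.61 and 6.12 CPM in sick knock-in, 1.53, 1.47, 1.60 and 0.625 CPM in healthy knock-in mice and 0.647, 2.12, 1.04 and 2.74 CPM in wild-type mice. Sick mice 2 and 3 lay inside the range of wild-type mice, and wild-type mice 2 and 4 exceeded all healthy mice. Its log2 fold change of 1.08 ± 0.52 over wild-type did not pass (adjusted p = 0.10), although with library totals alone as the scaling it did, at 1.69 (adjusted p = 0.0134), and with limma-voom it did, at 1.57 (adjusted p = 0.0264).

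Besides Spi1, 6 other lineage and surface genes were all higher in sick knock-in than in wild-type kidneys. Mpeg1, which encodes the pore-forming perforin-2, had log2 fold change 2.66 ± 0.42, and Ms4a7, a macrophage tetraspanning membrane protein gene, had 3.44 ± 0.35. Pld4, an endolysosomal nuclease gene, had 2.75 ± 0.33, and Laptm5, a lysosomal membrane protein gene of blood cells, had 2.81 ± 0.30. The actin regulators Coro1a and Lcp1, which all white blood cells use, had 2.10 ± 0.33 and 1.34 ± 0.32. Lcp1 overlapped between sick knock-in mice, at 38.9 to 102 CPM, and wild-type mice, at 20.2 to 42.5 CPM.

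Spi1 encodes PU.1, the transcription factor without which macrophages do not form. It had 23.3, 8.37, 10.7 and 17.7 CPM in sick knock-in, 4.13, 3.41, 3.78 and 3.75 CPM in healthy knock-in mice and 1.54, 3.60, 2.17 and 4.31 CPM in wild-type mice. Sick mice did not overlap with either other group, and healthy mice lay within the range of wild-type mice. The log2 fold change over wild-type was 2.36 ± 0.36 (adjusted p = 0.000175).

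Because so many members are textbook targets of PU.1, their promoters were searched for the letters of its binding motif, GAGGAAGT, and for the shorter core GAGGAA that lies within it, on both strands. The windows are RefSeq's on GRCm38.p6, 250 bases before to 50 bases after a start site, and 29 members had 35 of them. The full motif was present in 3 member promoters (8.57%) and in 3.2% of all 32851 promoters of the same length, and the core in 17 member promoters (48.6%) and in 28.3% of all. Windows of Clec7a and of Fcgr3 nearly coincide and count the same core more than once. By gene, 15 of the 29 members held the core, and the share over all genes was not computed. The 3 promoters with the full motif and that of Itgam, which like that of Mrc1 holds the core 3 times, are shown with the motif letters in capitals, each as 5′ to 3′ on the gene's own strand. The full motif starts at offset -2 from the start site in Ctss and -24 in Fcgr4, both reading on the opposite strand as ACTTCCTC, and at 9 in Pld4. A match describes the letters and is not a measured binding site.
Ctss, chr3:95526536-95526835, plus strand: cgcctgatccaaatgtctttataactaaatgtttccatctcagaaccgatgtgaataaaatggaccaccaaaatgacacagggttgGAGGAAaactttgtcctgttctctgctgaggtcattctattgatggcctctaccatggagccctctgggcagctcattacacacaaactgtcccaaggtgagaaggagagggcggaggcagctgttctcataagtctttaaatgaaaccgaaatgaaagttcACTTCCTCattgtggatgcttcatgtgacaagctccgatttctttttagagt
Fcgr4, chr1:171018676-171018975, plus strand: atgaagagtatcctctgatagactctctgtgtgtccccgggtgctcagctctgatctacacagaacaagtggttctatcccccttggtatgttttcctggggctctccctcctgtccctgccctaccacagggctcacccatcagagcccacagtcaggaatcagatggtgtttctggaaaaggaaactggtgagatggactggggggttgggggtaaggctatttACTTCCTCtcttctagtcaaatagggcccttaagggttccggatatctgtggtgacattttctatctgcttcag
Pld4, chr12:112760405-112760704, plus strand: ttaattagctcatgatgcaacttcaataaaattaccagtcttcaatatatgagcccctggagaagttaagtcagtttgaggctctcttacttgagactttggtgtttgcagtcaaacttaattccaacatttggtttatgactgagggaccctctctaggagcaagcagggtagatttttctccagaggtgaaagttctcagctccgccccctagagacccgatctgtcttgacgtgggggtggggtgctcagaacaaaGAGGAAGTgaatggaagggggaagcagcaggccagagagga
Itgam, chr7:128062390-128062689, plus strand: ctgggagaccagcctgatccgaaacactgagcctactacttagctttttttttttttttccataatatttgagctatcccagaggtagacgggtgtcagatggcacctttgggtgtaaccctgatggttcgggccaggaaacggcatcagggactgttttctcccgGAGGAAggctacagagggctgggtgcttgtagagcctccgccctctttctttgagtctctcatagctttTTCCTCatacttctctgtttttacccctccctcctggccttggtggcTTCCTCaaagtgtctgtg
The 4 genes differed in size of change: the log2 fold changes of sick knock-in over wild-type were 3.65 ± 0.31 for Ctss, 1.41 ± 0.46 for Fcgr4, 2.75 ± 0.33 for Pld4 and 3.68 ± 0.50 for Itgam.

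**Figure D1:**
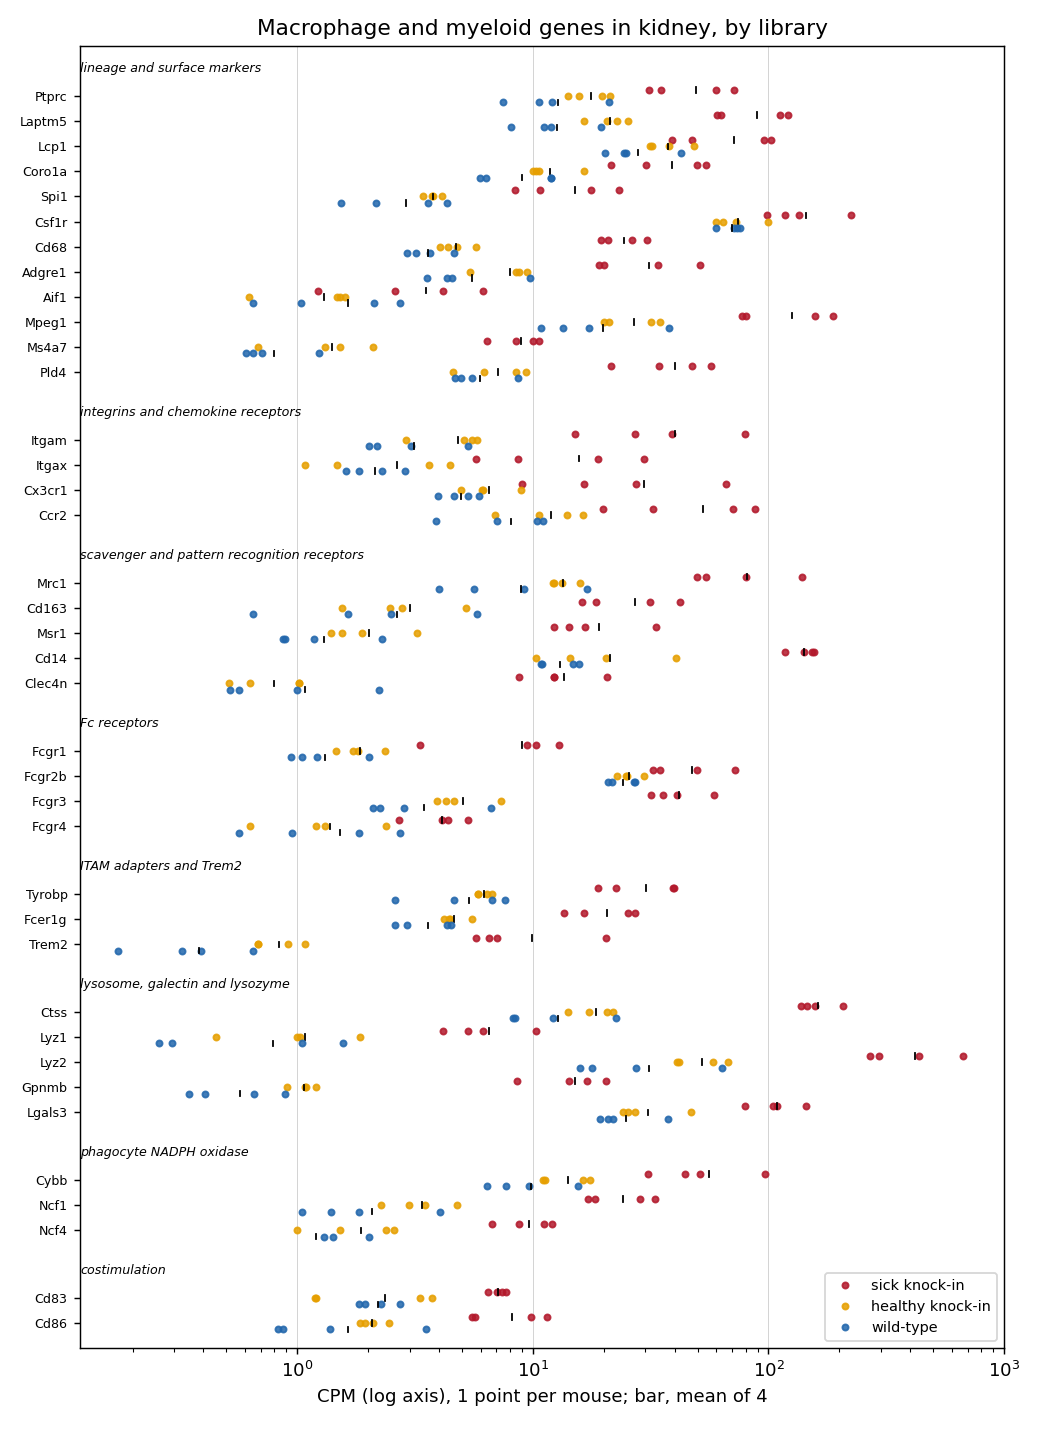
Level of each tested macrophage or myeloid gene in each kidney, in CPM on a log axis, with 1 point per mouse and a vertical bar at the mean of 4 mice, genes grouped by role and sick knock-in above healthy knock-in above wild-type. For 35 of the 38 genes every sick mouse lies above every wild-type mouse, and the exceptions are Lcp1, Aif1 and Fcgr4.

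Both integrin subunits rose. Itgam encodes CD11b, which pairs with CD18 to bind complement-coated particles, and had 79.5, 27.1, 15 and 39 CPM in sick knock-in, 5.53, 2.89, 5.78 and 5.11 CPM in healthy knock-in mice and 2.02, 2.18, 3.03 and 5.28 CPM in wild-type mice. Sick mouse 1 had the highest level and sick mouse 3 the lowest of its group, still above all other animals. Over wild-type mice its log2 fold change was 3.68 ± 0.50 (adjusted p = 6.88e-05). Of the 50-base windows of its transcript 72.4% are shared with Gm49368, an overlapping gene model on the same strand that has no row among the counted genes. Itgax, which encodes CD11c of dendritic cells and some macrophages, averaged 15.8 ± 10.9 CPM in sick knock-in and 2.15 ± 0.551 CPM in wild-type mice (SD, n = 4 each), a log2 fold change of 2.88 ± 0.56.

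The chemokine receptors of monocytes also differed. Cx3cr1, the fractalkine receptor of resident macrophages and patrolling monocytes, had 66, 9.03, 16.4 and 27.3 CPM in sick knock-in, 8.90, 6.09, 4.98 and 6.13 CPM in healthy knock-in mice and 4.61, 3.95, 5.29 and 5.94 CPM in wild-type mice. Sick mouse 1 stood far above the rest of its group, and sick mouse 2 was only slightly above the highest healthy mouse. The log2 fold change over wild-type of 2.59 ± 0.49 (adjusted p = 0.000850) was 1.83 without sick mouse 1 (adjusted p = 0.000994). Ccr2, by which classical monocytes follow CCL2 out of the blood, had 87.5, 19.9, 32.3 and 70.5 CPM in sick knock-in, 16.4, 6.93, 14.0 and 10.6 CPM in healthy knock-in mice and 3.88, 7.07, 11 and 10.4 CPM in wild-type mice. No sick mouse overlapped with another group, and sick mice 1 and 4 were highest. Its log2 fold change was 2.70 ± 0.47 (adjusted p = 0.000455).

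Scavenger and pattern recognition receptors had some of the largest differences, with a median log2 fold change of 3.43 over the 5 tested. Mrc1, the mannose receptor CD206, had 139, 54.1, 49.9 and 80.6 CPM in sick knock-in, 12.2, 13.3, 12.2 and 15.8 CPM in healthy knock-in mice and 9.14, 4.01, 5.63 and 16.9 CPM in wild-type mice. The lowest sick mouse had 49.9 CPM, and no other mouse exceeded 16.9 CPM. Set against wild-type mice, it had a log2 fold change of 3.18 ± 0.43 (adjusted p = 7.55e-05). Cd163, the receptor for haptoglobin-bound haemoglobin, had 42.1, 31.3, 18.5 and 16.2 CPM in sick knock-in, 2.48, 2.78, 1.55 and 5.22 CPM in healthy knock-in mice and 2.51, 0.648, 1.65 and 5.81 CPM in wild-type mice. Here sick mice 1 and 2 were high and sick mouse 4 lowest, and wild-type mouse 4 was the highest of its group. Its log2 fold change of 3.34 ± 0.57 (adjusted p = 0.000385) was 4.10 without wild-type mouse 4 (adjusted p = 0.000137).

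Msr1, the class A scavenger receptor for modified lipoproteins, had 33.3, 16.7, 12.3 and 14.3 CPM in sick knock-in, 1.40, 1.89, 1.55 and 3.24 CPM in healthy knock-in mice and 0.890, 1.18, 0.867 and 2.28 CPM in wild-type mice. All sick mice exceeded all others, and its log2 fold change of 3.85 ± 0.43 (adjusted p = 1.80e-05) was the third largest of the 38. Cd14, a co-receptor for bacterial lipopolysaccharide, averaged 142 ± 17.2 CPM in sick knock-in, 21.4 ± 13.3 CPM in healthy knock-in mice and 13.1 ± 2.58 CPM in wild-type mice (SD, n = 4 each), a log2 fold change of 3.43 ± 0.36 over wild-type. Clec4n, the lectin Dectin-2 that binds fungal mannans, averaged 13.5 ± 5.10 CPM in sick knock-in and 1.08 ± 0.791 CPM in wild-type mice (SD, n = 4 each), a log2 fold change of 3.61 ± 0.44, or 4.22 without wild-type mouse 4. Clec7a, the beta-glucan receptor Dectin-1, had 0 counts in all 12 libraries. A count of 0 allows up to 3 counts over a group, or 0.0344 CPM in sick knock-in, 0.0429 CPM in healthy knock-in mice and 0.0534 CPM in wild-type mice, by counting error only. The GENCODE annotation of GRCm38 calls this gene model a polymorphic pseudogene, and how the counting treated such models is not given.

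The Fc receptors, which bind the constant part of IgG, did not move alike. Fcgr1, the high-affinity receptor, had 12.9, 3.32, 10.3 and 9.40 CPM in sick knock-in, 1.46, 2.36, 1.72 and 1.82 CPM in healthy knock-in mice and 1.05, 0.943, 1.21 and 2.02 CPM in wild-type mice. Sick mouse 2 was well below the other sick mice but above all others, and the log2 fold change over wild-type was 2.77 ± 0.40 (adjusted p = 0.000116). Fcgr4, a second activating receptor, had 2.72, 4.12, 4.37 and 5.29 CPM in sick knock-in, 1.21, 1.31, 0.630 and 2.38 CPM in healthy knock-in mice and 0.566, 1.83, 0.953 and 2.74 CPM in wild-type mice. Sick mouse 1, highest for most members, was the lowest of the sick mice here and just below wild-type mouse 4. The log2 fold change of 1.41 ± 0.46 (adjusted p = 0.0221) no longer passed when sick mouse 4, wild-type mouse 1 or wild-type mouse 3 was left out (adjusted p = 0.0569, 0.0570 and 0.0625).

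Fcgr3 is the low-affinity activating receptor and Fcgr2b its inhibitory counterpart, which carries a motif that restrains the same signals. Fcgr3 had 58.7, 35.6, 31.6 and 40.8 CPM in sick knock-in, 4.64, 3.94, 4.29 and 7.32 CPM in healthy knock-in mice and 2.10, 2.83, 2.25 and 6.65 CPM in wild-type mice. Fcgr2b had 72.1, 32.4, 34.6 and 49.7 CPM in sick knock-in, 29.7, 24.9, 22.8 and 25.1 CPM in healthy knock-in mice and 27.0, 20.9, 21.8 and 26.8 CPM in wild-type mice. Sick mice lay above all others for both genes, by a wide margin for Fcgr3 and a narrow one for Fcgr2b. The log2 fold change over wild-type was 3.57 ± 0.37 for Fcgr3 (adjusted p = 1.15e-05) and 0.97 ± 0.23 for Fcgr2b (adjusted p = 0.00329), the smallest of the 38. Their transcripts are 96.5% identical over 509 aligned bases, and 12.8% of the 50-base windows of Fcgr3 occur in Fcgr2b, so the counting could have split some reads between them.

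The ITAM-bearing adapters carry the signals of various activating receptors into the cell. Tyrobp, the adapter DAP12, had 39.8, 18.8, 22.6 and 39.5 CPM in sick knock-in, 5.85, 5.83, 6.70 and 6.36 CPM in healthy knock-in mice and 4.61, 7.60, 2.6 and 6.72 CPM in wild-type mice. Sick mice 1 and 4 had about the same level, sick mice 2 and 3 were lower, and all 4 exceeded every other mouse. Relative to wild-type, the log2 fold change was 2.47 ± 0.32 (adjusted p = 5.38e-05), and that of Fcer1g, the gamma chain shared by activating Fc receptors, was 2.51 ± 0.26 (adjusted p = 1.21e-05). Trem2 encodes a lipid-sensing receptor that signals through DAP12, and had 20.5, 5.74, 6.52 and 7.04 CPM in sick knock-in, 1.08, 0.682, 0.916 and 0.681 CPM in healthy knock-in mice and 0.324, 0.648, 0.173 and 0.391 CPM in wild-type mice. Sick mouse 1 stood far above the other sick mice, and every healthy mouse was above every wild-type mouse. Over wild-type mice its log2 fold change was 4.62 ± 0.51 (adjusted p = 1.65e-05), or 3.99 without sick mouse 1 (adjusted p = 1.11e-05), on 23 counts in the 4 wild-type libraries together.

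The lysosomal and secreted group held the gene with the largest difference. Gpnmb encodes a lysosomal glycoprotein that macrophages make when loaded with lipid or debris, at chromosome 6 from 49036546 to 49070929 on GRCm38. It had 20.4, 17.0, 8.59 and 14.2 CPM in sick knock-in, 1.08, 1.21, 1.09 and 0.908 CPM in healthy knock-in mice and 0.405, 0.884, 0.347 and 0.652 CPM in wild-type mice. Groups did not overlap in any of the 3 comparisons, and sick mouse 3 was lowest of its group. Set against wild-type mice, it had a log2 fold change of 4.66 ± 0.34 (adjusted p = 1.74e-06), a 25.3-fold difference. Ctss, the cathepsin that trims the invariant chain of MHC class II, had 207, 137, 145 and 158 CPM in sick knock-in, 20.7, 14.1, 21.8 and 17.3 CPM in healthy knock-in mice and 8.25, 12.1, 8.41 and 22.4 CPM in wild-type mice. Wild-type mouse 4 reached the level of the healthy mice, and all sick mice were far above both groups. Its log2 fold change was 3.65 ± 0.31 (adjusted p = 3.45e-06).

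The lysozymes, which cut bacterial cell walls, are a neighbouring pair on chromosome 10, Lyz2 from 117277331 to 117282321 and Lyz1 from 117287797 to 117292868. Lyz2, the macrophage form, had 670.2, 270.4, 296 and 434 CPM in sick knock-in, 58.4, 40.7, 67.0 and 41.9 CPM in healthy knock-in mice and 17.9, 27.4, 15.9 and 63.3 CPM in wild-type mice. Lyz1, the form of intestinal Paneth cells, had 6.16, 4.15, 5.30 and 10.3 CPM in sick knock-in, 1.84, 0.997, 1.03 and 0.454 CPM in healthy knock-in mice and 1.05, 0.295, 0.260 and 1.57 CPM in wild-type mice. Sick mice did not overlap with the others in either gene, and wild-type mouse 4 was the highest of its group in both. Lyz2 had a log2 fold change of 3.74 ± 0.46 (adjusted p = 3.36e-05) and Lyz1 of 3.01 ± 0.55 (adjusted p = 0.000642). Without wild-type mouse 4 these were 4.34 for Lyz2 and 3.60 for Lyz1. Their transcripts are 96% identical over 1262 aligned bases and share 16.1% of the 50-base windows of Lyz1, so the low level of Lyz1 is uncertain.

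Lgals3 encodes galectin-3, a sugar-binding protein of macrophages that kidney epithelium also makes. It had 109, 105, 144 and 79.3 CPM in sick knock-in, 25.4, 24.1, 27.2 and 46.7 CPM in healthy knock-in mice and 20.8, 37.6, 21.9 and 19.2 CPM in wild-type mice. Unlike most members its highest sick value was in mouse 3 and its lowest in mouse 4, and its highest wild-type value was in mouse 2. Relative to wild-type, the log2 fold change was 2.13 ± 0.28 (adjusted p = 5.14e-05).

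The phagocyte NADPH oxidase makes superoxide to kill microbes. Its membrane subunit Cybb had 96.8, 44.3, 30.9 and 51.0 CPM in sick knock-in, 17.5, 11.1, 16.4 and 11.3 CPM in healthy knock-in mice and 7.69, 6.37, 9.62 and 15.6 CPM in wild-type mice. Sick mice did not overlap with either group, with mouse 1 highest and mouse 3 lowest. Over wild-type mice its log2 fold change was 2.51 ± 0.36 (adjusted p = 0.000119). The cytosolic subunits Ncf1 and Ncf4 had log2 fold changes of 3.52 ± 0.40 (adjusted p = 2.09e-05) and 2.96 ± 0.51 (adjusted p = 0.000431). Exons of Gtf2ird2 on the opposite strand cover 11.1% of the exon bases of Ncf1.

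Of the costimulatory genes, Cd86, the ligand that helps activate T cells through CD28, had 9.81, 5.68, 5.53 and 11.5 CPM in sick knock-in, 1.84, 2.10, 1.95 and 2.44 CPM in healthy knock-in mice and 1.38, 0.825, 0.867 and 3.52 CPM in wild-type mice. All sick mice were above all others, and wild-type mouse 4 was above every healthy mouse. Its log2 fold change was 2.29 ± 0.43 (adjusted p = 0.000781), or 2.98 without wild-type mouse 4. Cd83, a marker of mature dendritic cells that other activated cells also express, was the most even gene among sick mice, at 7.14 ± 0.544 CPM in sick knock-in and 2.19 ± 0.410 CPM in wild-type mice (SD, n = 4 each), a log2 fold change of 1.70 ± 0.35 (adjusted p = 0.00149).

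**Figure D2:**
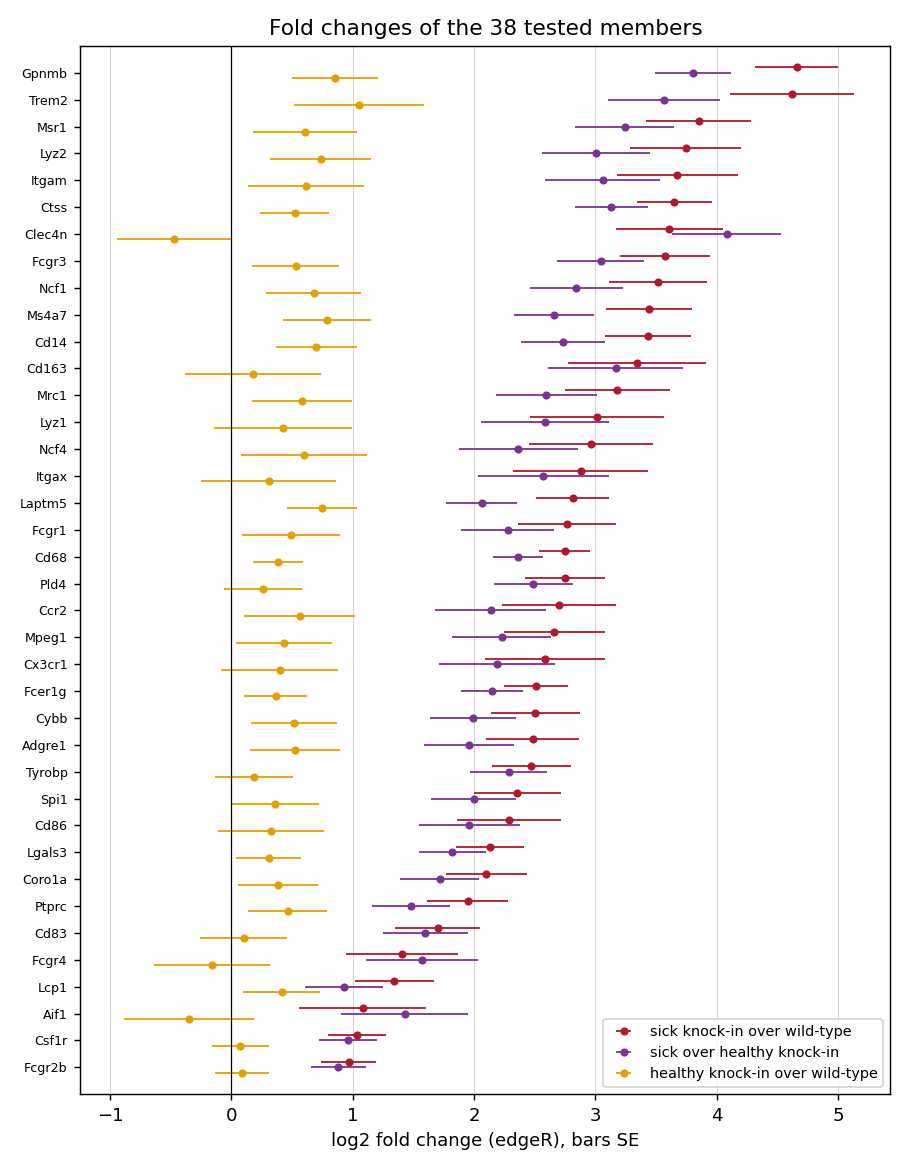
Log2 fold change with its SE for the 38 tested members in 3 comparisons, ordered by sick knock-in over wild-type, with 4 mice per group. The sick knock-in comparisons run from 0.88 to 4.66, and those of healthy knock-in over wild-type from -0.47 to 1.05, around and mostly to the right of 0.

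Sick and healthy mice of the same genotype were compared to see which differences go with the phenotype. All 38 tested members were higher in sick than in healthy knock-in kidneys, by a median of 4.86-fold, with log2 fold changes from 0.88 for Fcgr2b to 4.08 for Clec4n and a highest adjusted p of 0.0399, for Aif1. Groups did not overlap for 35 members, beside 24% of all tested genes that were higher without overlap, and the exceptions were Lcp1, Csf1r and Aif1. Clec4n was the one member named here whose difference from healthy mice exceeded that of Gpnmb, at 4.08 ± 0.45 against 3.81 ± 0.31. Trem2 followed with 3.57 ± 0.46 and Msr1 with 3.24 ± 0.41. The calls of Lcp1 and Aif1 were weak. Leaving out sick mouse 1, sick mouse 4, healthy mouse 1, healthy mouse 2 or healthy mouse 4 ended that of Lcp1 (adjusted p 0.0624 to 0.104), and leaving out sick mouse 1, sick mouse 4 or any healthy mouse ended that of Aif1 (adjusted p 0.0590 to 0.138), as did limma-voom, at 1.03 (adjusted p = 0.109). Without sick mouse 1 the log2 fold change of Cx3cr1 over healthy mice was 1.43, against 2.19 ± 0.48 with it, and that of Trem2 was 2.93.

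Healthy knock-in mice were compared with wild-type mice to see whether the genotype alone goes with a difference. None of the 38 tested members passed the threshold, beside 0.314% of all tested genes, by edgeR, by DESeq2 or by limma-voom, and 3 had an unadjusted p below 0.05 by edgeR, namely Laptm5, Ms4a7 and Gpnmb, beside 4.49% of all tested genes. The adjusted p of the members lay between 0.912 and 0.962. Their log2 fold changes had a median of 0.43, beside -0.01 over all tested genes, and were above 0 for 35 and below 0 for Clec4n, Aif1 and Fcgr4. The range ran from -0.47 ± 0.47 for Clec4n to 1.05 ± 0.54 for Trem2. Trem2 and Gpnmb were the members whose healthy and wild-type values did not overlap, both higher in healthy mice, beside 2.17% of all tested genes that were higher there without overlap. Wild-type mouse 4 lowered this median, which was 0.80 without that animal and 0.35 to 0.48 with any other library left out. Misses of the threshold in groups of 4 do not show that the members were alike: for Laptm5 the log2 fold change was 0.75 ± 0.29 and for Lyz2 0.74 ± 0.42.

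The same mice were high or low for many of the members. Sick mouse 1 was the highest of its group for 29 of the 38 genes and sick mouse 2 the lowest for 23, and the median ratio to the group's mean was 1.40 in sick mouse 1, 0.671 in mouse 2, 0.724 in mouse 3 and 1.09 in mouse 4. Healthy mice lay closer together, with median ratios from 0.886 to 1.08. Among wild-type mice, mouse 4 was highest for 30 genes with a median ratio of 1.55, and the other wild-type mice had 0.697 to 0.885. The summed level of all members was 2972, 1446, 1548 and 2191 CPM in sick knock-in, 471, 385, 518 and 444 CPM in healthy knock-in mice and 274, 327, 289 and 490.3 CPM in wild-type mice 1 to 4. Wild-type mouse 4 therefore lay within the range of the healthy mice, and the lowest sick sum was far above that of any other animal. The median coefficient of variation was 39.1% in sick knock-in, 26.0% in healthy knock-in and 43.5% in wild-type mice, with Cx3cr1 the most variable gene among sick mice at 85.4% and Cd83 the least at 7.62%. With any 1 of the 12 libraries left out, 36 to 38 members were higher in sick knock-in than in wild-type mice, and 36 to 38 than in healthy mice.

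**Figure D3:**
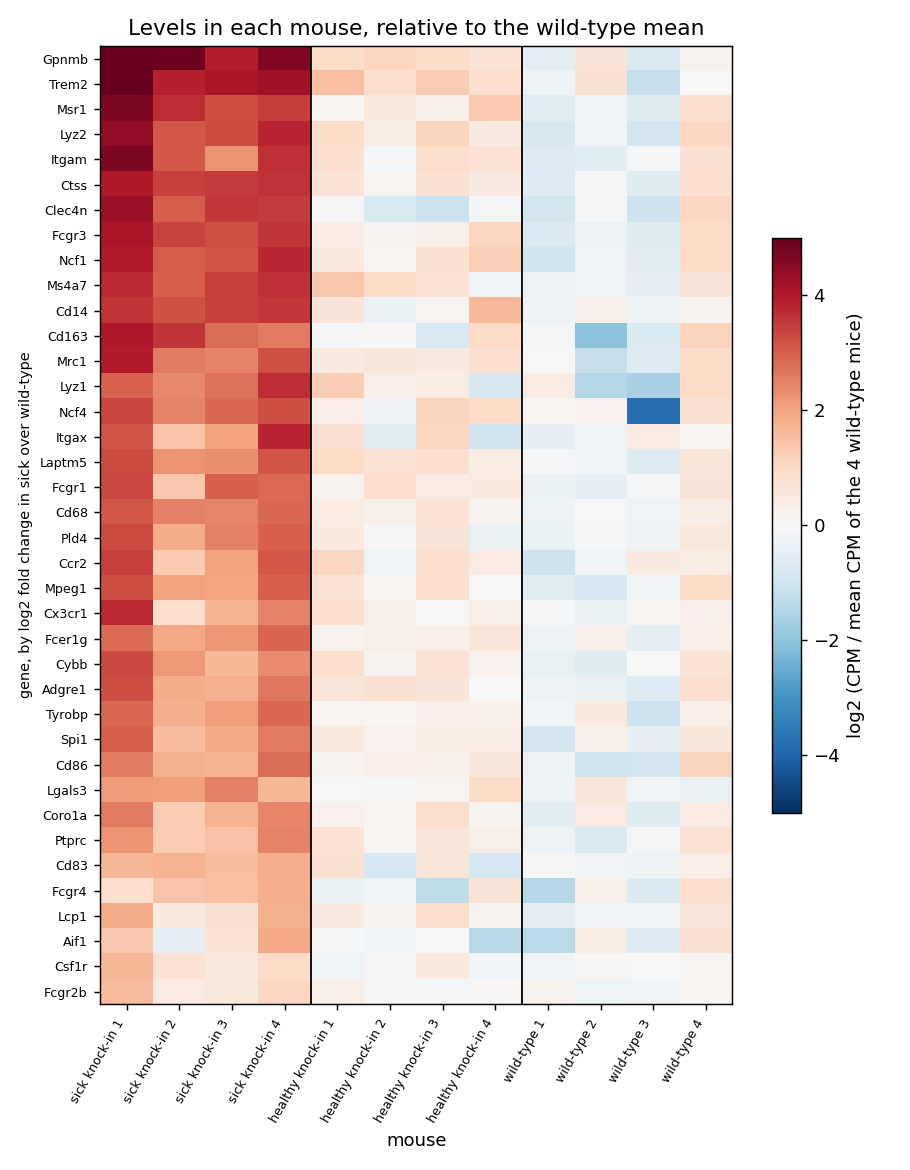
Level of each tested member in each of the 12 mice as log2 of CPM over the wild-type mean, red above and blue below, with the colour scale ending at 5 in either direction and black lines between groups. Sick mice 1 and 4 are darker than sick mice 2 and 3 for most genes, and wild-type mouse 4 is redder than the other wild-type mice.

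Levels between genes were compared per kilobase of exon. In sick knock-in kidneys Lyz2 led at 317 CPM per kilobase, followed by Ctss at 119, Cd14 at 81.9, Lgals3 at 58.8 and Tyrobp at 45.2. In wild-type kidneys Lyz2 also led, at 23.6 CPM per kilobase, but was followed by Lgals3 at 13.4, Csf1r at 12.2, Ctss at 9.43 and Tyrobp at 8.07. Trem2 and Gpnmb were the lowest in wild-type kidneys, at 0.0777 and 0.0878 CPM per kilobase, and had 2.01 and 2.31 CPM per kilobase in sick knock-in kidneys. Ms4a7 was lowest in sick knock-in kidneys, at 1.99 CPM per kilobase.

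Ratios of one member to another within each library, which do not depend on scaling, were compared to see where members parted. Fcgr2b over Fcgr3 counts, inhibitory over activating receptor, was 1.23, 0.909, 1.09 and 1.22 in sick knock-in, 6.41, 6.32, 5.32 and 3.43 in healthy knock-in and 12.8, 7.40, 9.65 and 4.03 in wild-type mice. Counts of the inhibitory receptor were thus about equal to those of the activating one in sick mice and several times higher in all others. These counts are not corrected for exon length, 5790 bases in Fcgr2b and 1736 in Fcgr3. Per kilobase, Fcgr2b had 8.15 CPM and Fcgr3 24.0 CPM in sick knock-in kidneys. Fcgr2b had 4.43 and Fcgr3 2.91 CPM per kilobase in healthy knock-in, and 4.17 and 1.99 in wild-type kidneys. The mean difference in the count ratio on the log2 scale was -2.82 ± 0.37 (SE, n = 4 each) from wild-type and -2.24 ± 0.23 from healthy mice, each with the smallest p an exact two-sided permutation test allows with 4 against 4, 0.0286. Over the 30 tests made, on 10 ratios in 3 comparisons, that p adjusts to 0.0952, so no ratio passed the threshold.

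Trem2 over Tyrobp counts, the receptor over its adapter, was 0.516, 0.305, 0.288 and 0.178 in sick knock-in, 0.185, 0.117, 0.137 and 0.107 in healthy knock-in and 0.0702, 0.0853, 0.0667 and 0.0583 in wild-type mice. Healthy and wild-type mice did not overlap (log2 difference 0.94 ± 0.21, SE, n = 4 each, exact permutation p = 0.0286, adjusted p = 0.0952), whereas the lowest sick mouse lay just below the highest healthy one. These ratios are imprecise, resting on 4, 11, 2 and 6 Trem2 counts in wild-type and 17, 13, 16 and 12 in healthy knock-in mice. Gpnmb over Cd68 was 0.443 to 0.817 in sick knock-in, 0.190 to 0.277 in healthy knock-in and 0.108 to 0.242 in wild-type mice, so sick mice did not overlap with the rest. Fcgr4 over Fcgr3 was 0.0463 to 0.138 in sick knock-in, 0.147 to 0.333 in healthy knock-in and 0.269 to 0.646 in wild-type mice, again apart for sick mice. Mrc1 over Cd68, Ccr2 over Cx3cr1, Lyz1 over Lyz2, Lgals3 over Cd68 and Adgre1 over Ptprc overlapped between groups in every comparison. Cd68 over Ptprc was 0.368 to 0.668 in sick knock-in and 0.225 to 0.309 in healthy knock-in mice without overlap, and overlapped with 0.220 to 0.488 in wild-type mice.

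**Figure D4:**
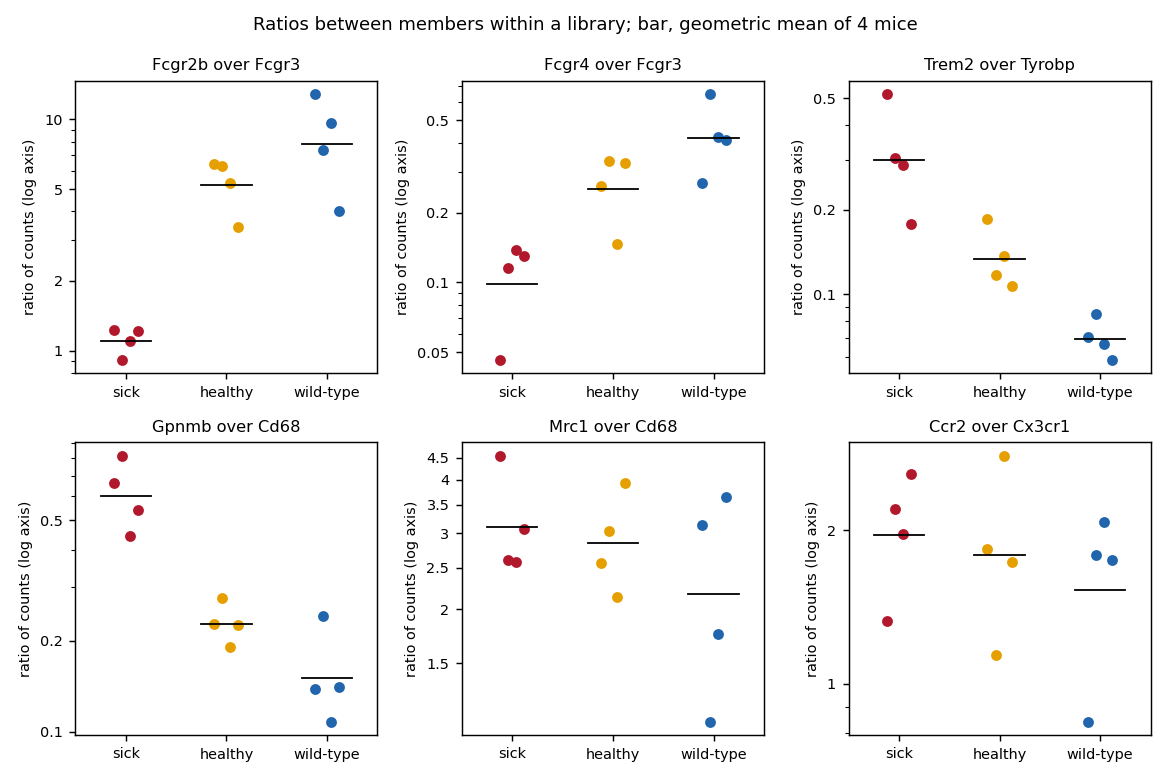
Ratio of the counts of 2 members within each library, on log axes, for 6 of the 10 ratios computed, with 1 point per mouse and a bar at the geometric mean of 4 mice. Fcgr2b over Fcgr3 lies between 0.909 and 1.23 in sick knock-in mice and between 3.43 and 12.8 in all other mice, while Mrc1 over Cd68 and Ccr2 over Cx3cr1 overlap.

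Genes of the same pathways outside the 39 were read from lists of related genes, and where 5 or fewer of a list are named beyond its leading genes, they were picked after their values were seen. Calls in every list below, in sick knock-in over wild-type kidneys, stand beside 25.9% of all tested genes higher and 25% lower. Of 28 further macrophage genes 25 could be tested, and 23 were higher and none lower in sick knock-in than in wild-type kidneys, with a median log2 fold change of 2.69. They were led by C3ar1, the receptor for the complement fragment C3a (3.14 ± 0.50), and by C1qc (3.13 ± 0.32) and C1qa (3.10 ± 0.31), chains of the complement starter C1q that macrophages make. C3ar1 was 2.53 without sick mouse 1 and 3.74 without wild-type mouse 4. Folr2, the folate receptor of some resident macrophages, and Cd180, a relative of the Toll-like receptors, did not pass, at 0.24 and 0.41. Among growth factor genes of the lineage all 4 tested of 6 were higher, Csf1, the ligand of Csf1r, at 2.27 ± 0.31, Csf2rb and Csf2ra, chains of the GM-CSF receptor, at 3.24 ± 0.31 and 2.17 ± 0.22, and Il34, the second ligand of Csf1r, at 0.94 ± 0.26.

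Of 9 chemokine genes that attract monocytes 7 could be tested and 6 were higher, with a median log2 fold change of 2.21. Ccl2, the main ligand of Ccr2, had 26.0, 10.5, 7.67 and 13.8 CPM in sick knock-in, 1.72, 1.10, 0.630 and 0.852 CPM in healthy knock-in mice and 0.405, 0.766, 0.260 and 6.52 CPM in wild-type mice. Wild-type mouse 4 alone came close to the lowest sick mouse, and the log2 fold change of 2.83 ± 0.77 was 4.84 without that animal. Ccl7 and Ccl8, which act on the same receptor, had log2 fold changes of 3.14 ± 0.82 and 3.30 ± 0.95. The size of both moved with single mice, while their calls held. Ccl7 was 2.40 without sick mouse 1 (adjusted p = 0.0252) and 4.49 without wild-type mouse 4 (adjusted p = 0.00235). Ccl8 was 2.42 without sick mouse 4 (adjusted p = 0.0459) and 4.09 without wild-type mouse 4 (adjusted p = 0.0115). Ccl8 did not pass by limma-voom (adjusted p = 0.104). Ccl12 did not pass, at 1.62 (adjusted p = 0.131).

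Of 15 genes that act with ITAM adapters 13 were higher and none lower, with a median log2 fold change of 2.06. Card9, an adapter below lectin receptors, had 2.76 ± 0.47, Syk, the kinase that binds phosphorylated ITAMs, 2.61 ± 0.33, and the kinase Btk 2.51 ± 0.45. The phosphatase Ptpn6 and the kinase Prkcd, also expressed outside blood cells, did not pass, at 0.06 and 0.14. Among further genes that act with the NADPH oxidase, Rac2 and Hvcn1 were higher, at 1.91 ± 0.33 and 0.70 ± 0.26, and Rac1 did not pass, at -0.04. Cyba, the membrane partner of Cybb that other cells also make, was lower in sick knock-in kidneys at -1.22 ± 0.28, with 111, 128, 222 and 147 CPM in sick knock-in and 290.1, 581, 255 and 286 CPM in wild-type mice.

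Of 17 lysosome and lipid genes linked to Trem2-positive macrophages 10 were higher and 2 lower, with a median log2 fold change of 0.80. Spp1, which encodes osteopontin, had 10691, 12357, 14068 and 7941 CPM in sick knock-in and 580.1, 665, 459 and 361 CPM in wild-type mice, a log2 fold change of 4.45 ± 0.28. Apoe, a lipid carrier gene, had 3.64 ± 0.24, and Ctsk, a cathepsin that cuts collagen, 2.90 ± 0.27. Kidney tubule cells also make osteopontin, and in each sick mouse its level exceeded the sum over all members. Lipa, the lysosomal acid lipase, was lower at -1.28 ± 0.21, and so was Lpl, which breaks down triglycerides in the blood, at -1.12 ± 0.42 (adjusted p = 0.0420), a call that ended without sick mouse 2 or 3, healthy mouse 1, 2 or 3, or wild-type mouse 1, 2 or 4 (adjusted p 0.0514 to 0.0949), and with library totals alone, at -0.53. Cd63, Ctsz, Fabp5, Ctsb and Ctsl did not pass, at -0.47 to 0.59.

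Transcription factors other than PU.1 were mixed, 5 of 11 tested being higher and 3 lower. Egr2, a factor of activated macrophages, had 4.24 ± 0.78 (6.07 without wild-type mouse 4), Runx1, a factor of blood cell formation, 3.96 ± 0.39, and Klf4, active in monocytes and in epithelium, 2.53 ± 0.20. Also higher were Cebpb at 1.38 ± 0.40 and Irf8 at 0.85 ± 0.24. Nr1h3, the sterol sensor LXR alpha, was lower at -1.20 ± 0.26. Tfec and Maf were lower at -0.63 ± 0.23 and -0.59 ± 0.22, but with library totals alone as the scaling they were at -0.03 (adjusted p = 0.911) and -0.00 (adjusted p = 0.995) and did not pass. Tfec also lost its call without sick mouse 1, 2 or 4 or wild-type mouse 2 or 4 (adjusted p 0.0671 to 0.101), and Maf without sick mouse 1, 3 or 4, healthy mouse 2 or wild-type mouse 1 or 3 (adjusted p 0.0502 to 0.103). Among 14 activation genes 10 could be tested and 6 were higher, none lower. Chil3, a chitinase-like gene of alternatively activated mouse macrophages, had 4.77 ± 0.91 (5.93 without wild-type mouse 4), and Ccl17 3.74 ± 0.82 (4.84 without wild-type mouse 2). Arg1, the arginase of the same state, had 12.4, 0.531, 1.23 and 1.23 CPM in sick knock-in, 0.127, 0, 0.114 and 0.0568 CPM in healthy knock-in mice and 0, 0.0589, 0 and 0.130 CPM in wild-type mice, on 3 counts in the wild-type group. Nos2, Retnla, Ccl22 and Clec10a did not pass, at -0.44, -0.92, 0.90 and 1.09.

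Marker lists of other blood cells differed in how many of their genes passed, beside 25.9% of all tested genes that were higher and 25% that were lower. All 8 T cell genes were higher in sick knock-in than in wild-type kidneys, with a median log2 fold change of 2.06 and a summed level of 11.6 to 36.7 CPM in sick knock-in, 8.03 to 13.4 CPM in healthy knock-in mice and 3.30 to 8.22 CPM in wild-type mice. Cd4, which mouse T cells carry, had 2.16 ± 0.52, and Cd3g and Cd3e, parts of the T cell receptor complex, 2.26 ± 0.65 and 2.15 ± 0.60. Cd4 was 2.91 without wild-type mouse 4, and Cd3g 1.59 without sick mouse 4. Of 10 monocyte genes 9 were tested, 5 higher and 1 lower. Their summed level was lower in sick mice, at 183 to 220 CPM in sick knock-in, 458 to 572 CPM in healthy knock-in mice and 390 to 550 CPM in wild-type mice. Yet 8 of the 9 tested had a log2 fold change above 0, with a median of 1.48, and the sum fell with Ace, the 1 below 0. Vcan had 4.47 ± 0.60, F13a1 3.12 ± 0.62 and Plac8 2.60 ± 0.26, while Ace, a peptidase gene of the tubule brush border too, was lower at -2.56 ± 0.17, and Ly6c2, which marks classical monocytes, did not pass at 0.28. F13a1 was 3.84 without wild-type mouse 4. Dendritic cell genes were higher in 5 of 10 tested, with a summed level of 44.5 to 134 CPM in sick knock-in, 23.2 to 29.1 CPM in healthy knock-in mice and 19.3 to 26.1 CPM in wild-type mice. Irf4 led at 5.05 ± 0.76, with 5.55, 108, 28.0 and 53.6 CPM in sick knock-in and 0.890, 1.59, 1.39 and 1.96 CPM in wild-type mice, so that sick mouse 1 was near the other groups and sick mouse 2 highest, against the order in most members, and it was 4.29 without sick mouse 2. Irf4 supplied 108 of the summed 134 CPM in sick mouse 2, 28.0 of 61.2 in mouse 3 and 53.6 of 120 in mouse 4. In sick mouse 1 Irf4 was 5.55 of 44.5 CPM. The median log2 fold change of the dendritic cell list was 0.89. Xcr1 and Clec9a, which define conventional type 1 dendritic cells, did not pass.

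Neutrophil genes were higher in 3 of 7 tested of 13, and summed to 7.52 to 26.9 CPM in sick knock-in, 5.49 to 17.5 CPM in healthy knock-in mice and 3.99 to 7.83 CPM in wild-type mice. Csf3r had 2.02 ± 0.45 and S100a8 2.42 ± 0.77, or 1.81 without sick mouse 4 (adjusted p = 0.0714), and Mmp8 had 0.446, 0.930, 0.307 and 0.617 CPM in sick knock-in and 0.0809, 0, 0.0867 and 0.0652 CPM in wild-type mice, on 3 counts in the wild-type group. The call of Mmp8 ended without sick mouse 1, 2 or 4 or any wild-type mouse (adjusted p 0.0575 to 0.103). Against healthy knock-in mice only 1 of the 7 tested neutrophil genes was higher in sick mice, with log2 fold changes of -0.06 to 1.20. Healthy knock-in over wild-type values of these genes ran from -0.41 to 3.35, and none passed. The neutrophil genes Ly6g, Mpo, Elane, Camp, Ngp and Retnlg had too few counts to test. So had 7 of 8 mast cell genes, with Hdc at 1.20 ± 0.44, a call that ended without any 1 sick mouse or wild-type mouse 1, 2 or 4 (adjusted p 0.0507 to 0.0921), and all 4 eosinophil genes, which summed to 0.299 to 0.822 CPM in sick knock-in, 0.105 to 0.572 CPM in healthy knock-in mice and 0.130 to 0.177 CPM in wild-type mice. Of NK cell genes Klrb1c was higher at 1.83 ± 0.57 and 2 of 3 tested did not pass, and of B cell genes Cd22 was higher at 1.66 ± 0.58 and 2 of 3 tested did not pass. The call of Klrb1c ended without sick mouse 4 (adjusted p = 0.0604), and that of Cd22 without sick mouse 1 or 4 or wild-type mouse 3 or 4 (adjusted p 0.0715 to 0.0820). Red blood cell genes did not pass in any of 5 and summed to 14.5 to 207 CPM in sick knock-in, 63.8 to 289.7 CPM in healthy knock-in mice and 64.1 to 366 CPM in wild-type mice, and the platelet genes Pf4 and Itga2b were at 1.94 ± 0.36 and -0.62 ± 0.21. Itga2b did not pass without sick mouse 1 or wild-type mouse 2 (adjusted p = 0.0823 and 0.0703) or with library totals alone, at -0.04.

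Of the cells that make up the kidney itself, all 6 fibroblast genes were higher, with a median log2 fold change of 3.29 and a summed level of 2467 to 5354 CPM in sick knock-in, 275 to 809 CPM in healthy knock-in mice and 305 to 471 CPM in wild-type mice, and all 7 proximal tubule genes were lower, with a median of -2.77. Col1a1, a collagen gene, had 3.87 ± 0.53 and Slc5a2, the glucose transporter SGLT2, -3.33 ± 0.25. Of 6 endothelial genes 1, Kdr, was lower at -1.06 ± 0.21, 1 of 4 podocyte genes, Wt1, was higher at 1.03 ± 0.21, and neither thick ascending limb gene passed. Kdr did not pass with library totals alone (adjusted p = 0.0756), and Umod of the thick ascending limb did pass by DESeq2 (adjusted p = 0.0426), by limma-voom (adjusted p = 0.0122) and without sick mouse 3 (adjusted p = 0.0228). The part of these other cells in the levels of the 39 genes was not tested. In healthy knock-in against wild-type kidneys no gene of these lists passed the threshold, though 2 did by DESeq2 and 2 by limma-voom. The largest list medians there were log2 fold changes of 1.07 for T cell, 0.94 for monocyte and 0.88 for neutrophil genes. The lowest was -0.32, for the thick ascending limb.

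**Figure D5:**
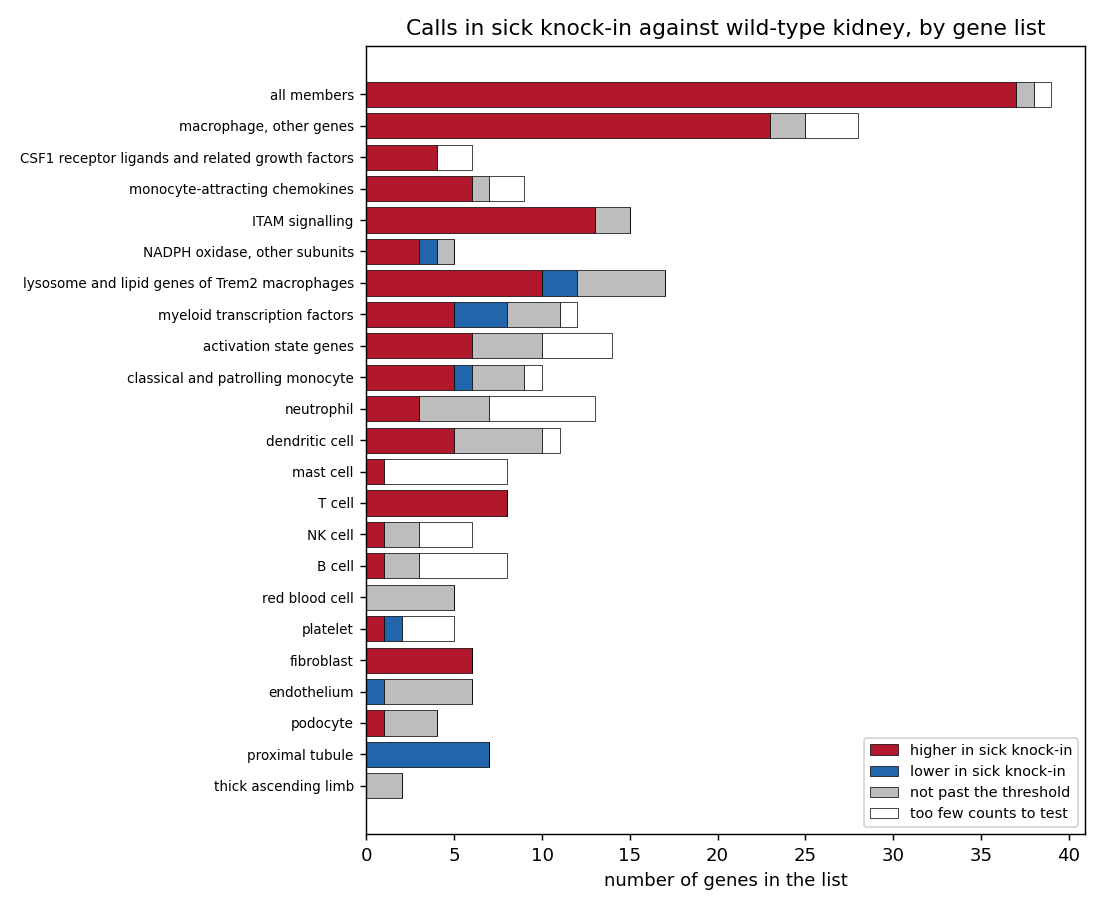
Number of genes in each list that were higher, lower or not past the threshold in sick knock-in against wild-type kidneys, or had too few counts to test, as horizontal bars starting at 0. The members have 37 higher of 38 tested, all 8 T cell and all 6 fibroblast genes are higher, and all 7 proximal tubule genes are lower.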

How the data were processed

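Kidney RNA of 12 mice was read from a deposited table whose columns are raw counts per Ensembl gene, per the file headers. The kit was miRvana, followed by DNase and Trueseq library preparation, per the labels' protocols. The submitters' processing notes name the build GRCm38, TopHat2 2.0.11, Trim Galore 0.3.7, DESeq2 1.12.4 and Cufflinks, without saying what each did. The counting program, annotation release and strand handling were not given in the sources used here. A further 12 columns of normalised values, and the authors' own fold changes, were not used.

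Mice were grouped by the labels, which do not say how animals were bred or housed. The p-values set a group difference against the spread between these animals. Any effect of litter, housing or batch cannot be told apart from a group difference. The raw counts were tested in R 4.3.3 with edgeR 4.0.16: filterByExpr kept 15589 genes, TMM factors were 1.23 to 1.39 in sick knock-in, 0.804 to 0.933 in healthy knock-in and 0.839 to 0.901 in wild-type mice, each group had 1 mean over all 12 libraries, and the quasi-likelihood F test was adjusted by Benjamini-Hochberg over all tested genes, with a threshold of 0.05. The SE is the size of the log2 fold change over the square root of F. edgeR's common dispersion gave a coefficient of variation between mice of 0.270. Levels per kilobase use exon lengths of GENCODE's GRCm38 annotation, and a count of 0 is read as at most 3 counts over a group. Ratios were tested by exact permutation. Alternatives were other scalings, filters, thresholds and fits, DESeq2 1.42.0, limma 3.58.1 and leaving out each library; leaving out libraries for the ratios was chosen after seeing the data.

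The members and lists were chosen with earlier results of these data known. Values in every library are given for members chosen by role, for the 3 with the largest and the 3 with the smallest change in sick knock-in over wild-type mice and for any that did not pass; Fcgr3 was added after its values were seen. Of each other list, up to 3 called genes with the largest change and any against the list's majority are named. A list gene is not reported here. Members not matched in the promoter table are Msr1, Spi1, Adgre1, Cd83, Cd14, Ncf4, Tyrobp, Clec4n, Cd86 and Csf1r.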

Additional observations from a re-analysis of the deposited data

Results flagged for a closer look

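Within groups of 4 mice, 8 of the 114 combinations of a member and a group held 1 animal whose gap to its nearest neighbour, as a share of the group's range, exceeded Dixon's 95% critical value. Chance alone would set apart about 1 in 20 groups. In sick knock-in mice this was Trem2 in mouse 1, at 20.5 CPM where the next mouse had 7.04 CPM. In healthy knock-in mice it was Coro1a in mouse 3, at 16.5 CPM where the next had 10.6 CPM, Lgals3 in mouse 4, at 46.7 CPM where the next had 27.2 CPM, and Aif1 in mouse 4, low at 0.625 CPM where the next had 1.47 CPM. In wild-type mice, mouse 4 stood apart for Adgre1, at 9.72 CPM where the next had 4.53 CPM, for Ms4a7, at 1.24 CPM where the next had 0.707 CPM, and for Fcgr3, at 6.65 CPM where the next had 2.83 CPM. Wild-type mouse 2 stood apart for Lgals3, at 37.6 CPM where the next had 21.9 CPM.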

How the results depend on the processing

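Over 23 alternatives, 12 of which left out a library, 32 to 38 members were called in sick knock-in over wild-type mice and 31 to 38 in sick over healthy knock-in mice, with none lower, and none was called between healthy knock-in and wild-type mice. The lowest counts came from testing against a log2 fold change of at least 1, which ended the calls of Lcp1, Csf1r, Fcgr2b, Fcgr4 and Cd83 in the first comparison. Counts of other genes moved more. With library totals alone, which raised the median log2 fold change of all genes to 0.63 in sick over healthy knock-in mice and that of the members to 2.87, 8420 genes were higher in sick knock-in than in wild-type mice (4032 with TMM) and 8581 than in healthy mice (3814 with TMM), and 9 other list genes were lower than in healthy mice (17 with TMM). Against a log2 fold change of at least 1, sick knock-in over wild-type mice had 2523 genes called (7933 without that minimum) and 1572 higher, with 65 other list genes higher and 7 lower (102 and 16), and sick over healthy mice had 1962 called (7232) and 1100 higher, with 48 other list genes higher and 8 lower (86 and 17). Healthy knock-in against wild-type mice had 81 genes called and 73 higher by DESeq2, and 86 called and 80 higher by limma-voom, where edgeR called 49 and 48 higher. Other list genes higher there were 2 by DESeq2, 2 by limma-voom, 1 with the replicate block and 0 to 1 when a library was left out, where edgeR called 0. The cause of these moves was not tested, except that a minimum fold removes small changes by construction.

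Members whose sign changed did so only between healthy knock-in and wild-type mice, where no member was called. By limma-voom the log2 fold change was 0.54 for Aif1, 0.10 for Clec4n and 0.42 for Fcgr4. With a library left out the values were -0.10 to 0.16 for Csf1r, -0.60 to 0.0096 for Aif1, -0.068 to 0.57 for Itgax, -0.23 to 0.94 for Cd163, -0.68 to 0.15 for Clec4n, -0.56 to 0.28 for Fcgr4, -0.035 to 0.40 for Tyrobp and -0.21 to 0.33 for Cd83. Within those ranges the sign also changed for Cd83 without healthy mouse 3 (-0.11), for Cd163 without wild-type mouse 2 (-0.17) and for Fcgr4 without healthy mouse 3 (0.081). In sick knock-in over wild-type mice the haemoglobin genes, not called, changed sign: Hbb-bs was 0.20 with library totals alone, 0.012 without sick mouse 1 and -0.67 to 0.30 over all libraries left out, and Hba-a1 was 0.13 with library totals alone and -0.73 to 0.30 over all libraries left out, both highest without wild-type mouse 2.

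The labels number mice 1 to 4 in each group and do not say whether equal numbers belong together. Deviations of same-numbered mice from their group means had correlations of -0.26 to 0.24. Differently numbered mice were not compared, so these values cannot tell whether the mice are paired. The numbers are taken as names. With the replicate block 37 members were called in sick knock-in over wild-type mice, 36 over healthy knock-in mice, Lcp1 (adjusted p = 0.0502) and Aif1 (adjusted p = 0.0997) being lost, and 0 between healthy knock-in and wild-type mice. Members of low level, with 23 counts for Trem2 and 34 for Gpnmb over the 4 wild-type libraries, limit the precision of the largest folds.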
